A study of Danio rerio with 4 samples.

Results

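The genes described here are the 48 rows of the authors' gene table whose symbol belongs to a Hox or another homeobox patterning family, out of 2477 rows in all. They were picked by symbol, in families chosen with earlier results of these data known, from a table that holds only rows with q under 0.05 in the authors' comparison: Hox, Cdx, Iroquois, Meis, Pbx, Pax, Lhx, sine oculis, Dlx, Msx, Otx, Gbx, Nkx, Evx, Engrailed and Tgif genes, and the ventral genes vox, vent and ved. Of these names, 14 families had at least 1 row. No row matched a Pbx, Evx or Tgif symbol or ved, so these were not analysed here. The even-skipped gene eve1, whose symbol falls outside the pattern, is counted with the other homeobox genes below. In a current RefSeq list of zebrafish genes (assembly GRCz12tu) 159 symbols match the same pattern, among them 50 Hox symbols against 13 Hox rows in the table. A few symbols have since been revised, such as the otx1a of the table, which a reference table of gene names calls otx2a, and the symbols of the authors are kept.

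Germ cells were isolated from AB strain zebrafish embryos at 13 hours post fertilization, when somites are forming and the body axis is being laid out. Each of the 2 groups had been injected with a morpholino, an antisense oligonucleotide that interferes with a chosen RNA: a control morpholino (control MO) or one against dead end (dead end MO), with 2 libraries a group. Dead end is a vertebrate RNA-binding protein of germ cells, and the comparison bears on whether germ cells lacking it take on somatic expression. The cells of both groups were sorted by flow cytometry on a germline EGFP signal, so every cell sequenced had passed that gate, and the labels do not name the EGFP line, the morpholino dose, or say whether replicate libraries came from different clutches.

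Homeobox genes encode transcription factors that bind DNA through a homeodomain. In the embryo they assign position: Hox genes lie in clusters, and their order in the cluster follows the order of their domains from hindbrain to tail, with low paralog groups anterior and high groups posterior. Cdx factors switch on posterior Hox genes, Meis and Pbx proteins bind DNA together with Hox proteins, Otx genes specify forebrain and midbrain, and Pax, sine oculis, Nkx, Msx and Dlx genes mark further domains of neural tube, placodes and mesoderm. Germ cells at this stage are migrating and are not a source of body axis pattern.

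The authors' table gives 1 FPKM value per gene and group (sequenced fragments per transcript length and per library size), which combines the 2 libraries of that group, so there is no spread between libraries to print and the depth is unknown. Levels below are these FPKM values, folds are FPKM with the dead end MO over FPKM with the control MO, and q is the authors' own. As a measure of error, the authors' test statistic was read as the log2 ratio divided by its standard error. The standard errors implied in this way ran from 0.47 to 1.14 on the log2 scale over the members, with a median of 0.68. A 95% range of a fold below is built from it on the normal approximation. Of the 21 members with a p above the smallest p of the table and a statistic, the normal approximation gave a larger p than the authors' for 19. For these 21 the ranges are thus mostly wider than the authors' test would make them. The check does not cover the 26 members at the smallest p.

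All 48 members were higher with the dead end MO at the authors' q under 0.05 and at least 1 FPKM in the higher group, and 0 were lower, in the authors' deposited comparison, for which their notes name Cuffdiff. Across all 2477 rows 64.6% were called higher and 33.6% lower by the same rule. The table holds only rows with q under 0.05, so the share of homeobox genes that changed cannot be read from it. The direction of the changes can be read only for the rows that passed. A gene at a low control level has little room to fall, so the filter can favour higher rows. In controls 16 members stood at 10 FPKM or more, against 47 with the dead end MO. Sizes are limited by the same filter, since a gene with a larger error needs a larger fold to have a row. The median implied standard error was 0.68 for the members and 0.53 for all called higher rows, and their median control levels were 6.56 and 15.2 FPKM. How far the filter enlarges the members' folds or favours their direction was not tested. The count of lower members at an unadjusted p under 0.05 is 0 by construction, as every member row is higher. At q under 0.01, 37 members were called higher, where 42.3% of all rows were higher and 16.8% lower. The smallest q of the table, 0.00107, was that of 26 members (54.2%), against 31.2% of all rows and 39.0% of the called higher rows.

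The rises were large for this table, within the limit that the q filter sets on sizes. The median fold of the 47 members with both values above 0 was 5.09, against 2.96 over all called higher rows with both values above 0. At least 4-fold rises were seen for 36 of the 48 members (75.0%) and for 410 rows of the table. These are 16.6% of all 2477 rows, a base that includes the lower rows, and 1599 rows were called higher. At least 10-fold rises were seen for 7 members (14.6%), which were hoxb1b, hoxb3a, hoxc3a, hoxd3a, irx3b, irx7 and six4a, and for 59 rows (2.38%) of the table. On the scale of log2 (FPKM + 1) the median change of the members was 2.16, against 1.19 over all called rows and 1.49 over the called higher rows. Lowest among the folds were those of six3b (2.34-fold) and gbx2 (2.37-fold), and gbx2 was the 1 member of 47 whose 95% range reached below 1.

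The control cells were not free of these transcripts. Control levels had a median of 6.56 FPKM, and 16 members stood at 10 FPKM or more, while with the dead end MO the median was 34.0 FPKM and 47 members stood at 10 FPKM or more. The exception was six9, a sine oculis family gene, listed at 0 in controls and at 3.78 FPKM with the dead end MO. The order of levels was largely kept, with a Spearman's rho of 0.83 between the groups across the 48 genes, which share the same libraries. Summed over members, FPKM went from 543 to 3184, a ratio of 5.86, or from 0.464% to 1.34% of the FPKM summed over the table.

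**Figure D1:**
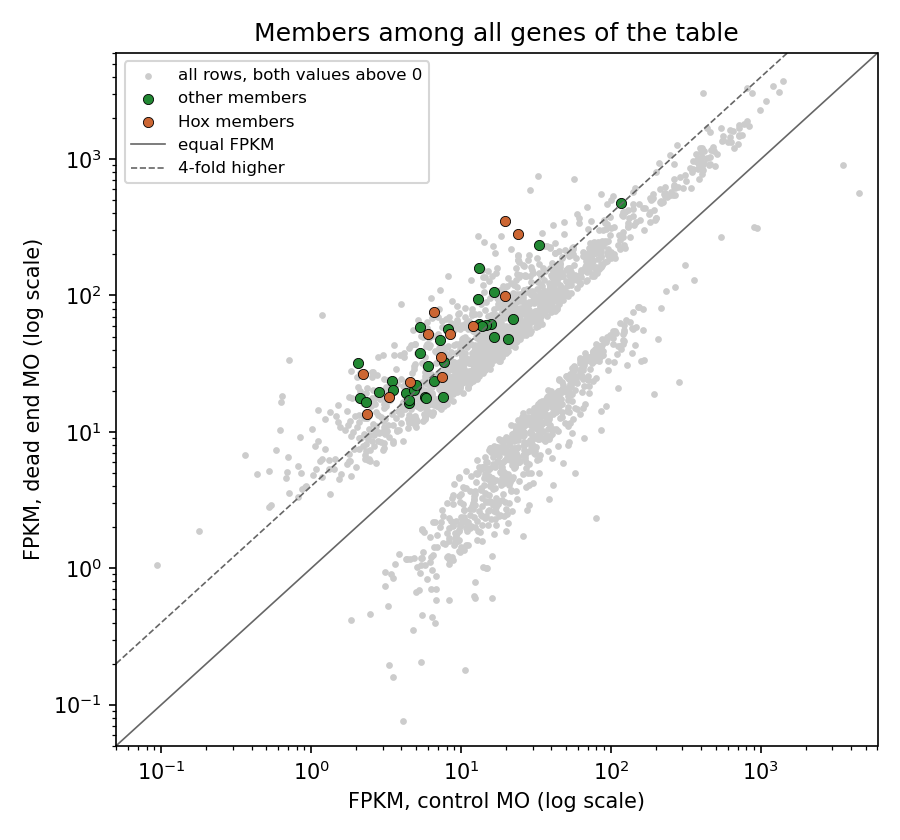
Each point is a gene of the authors' table, with FPKM in control MO cells on the x axis and FPKM in dead end MO cells on the y axis, both on log scales; orange points are Hox genes, green points the other members, grey points all rows with both values above 0, the solid line marks equal FPKM and the dashed line a 4-fold rise. The 47 members with both values above 0 lie above the solid line, and 36 lie at or above the dashed one.

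Markers of other cell types moved in the same comparison. Of 25 listed germ cell markers 13 had a row, and 12 of these were lower and 1, hook2, higher with the dead end MO; their summed level went from 10583 to 2412 FPKM, and none was listed at 0 in either group. Of 27 neural markers 16 had a row and 16 were higher, 15 of them past the minimum of 1 FPKM. Their sum was 222 FPKM in controls and 1365 FPKM with the dead end MO. The largest part was notch1a, at 59.5 and 397 FPKM, whose fold had a 95% range of 0.0553 to 806. The gene elavl4, of differentiating neurons, was listed at 0 in controls. It stood below the 1 FPKM minimum, at 0.944 FPKM, with the dead end MO. Paraxial mesoderm and muscle markers were higher for 14 of 14 rows (24 listed), from 238 to 3254 FPKM in sum, and epidermis markers for 7 of 7 rows (16 listed), from 272 to 669 FPKM. Endoderm and blood markers were higher for 8 of 8 rows (15 listed), from 35.8 to 208 FPKM, with the endoderm factor gene sox32 listed at 0 in controls. For comparison, 64.6% of all rows were called higher. The FPKM sum had a ratio of 2.02 over all rows and of 2.83 over the called higher rows. The ratio of the epidermis sum, 2.46, was below the latter, and much of that sum was krt8, at 198 and 358 FPKM. By gene, the median fold of the epidermis markers was 5.25, against 2.96 over all called higher rows. The part of somatic cells within the sort in the homeobox result was not tested, and in such bulk samples more cells of a type and more RNA per cell cannot be told apart. The germline labels fit the control cells in that ca15b, nanos3 and ddx4, genes of germ cells, stood at 4484, 3543 and 904 FPKM there, and at 568, 906 and 318 FPKM with the dead end MO.

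**Figure D2:**
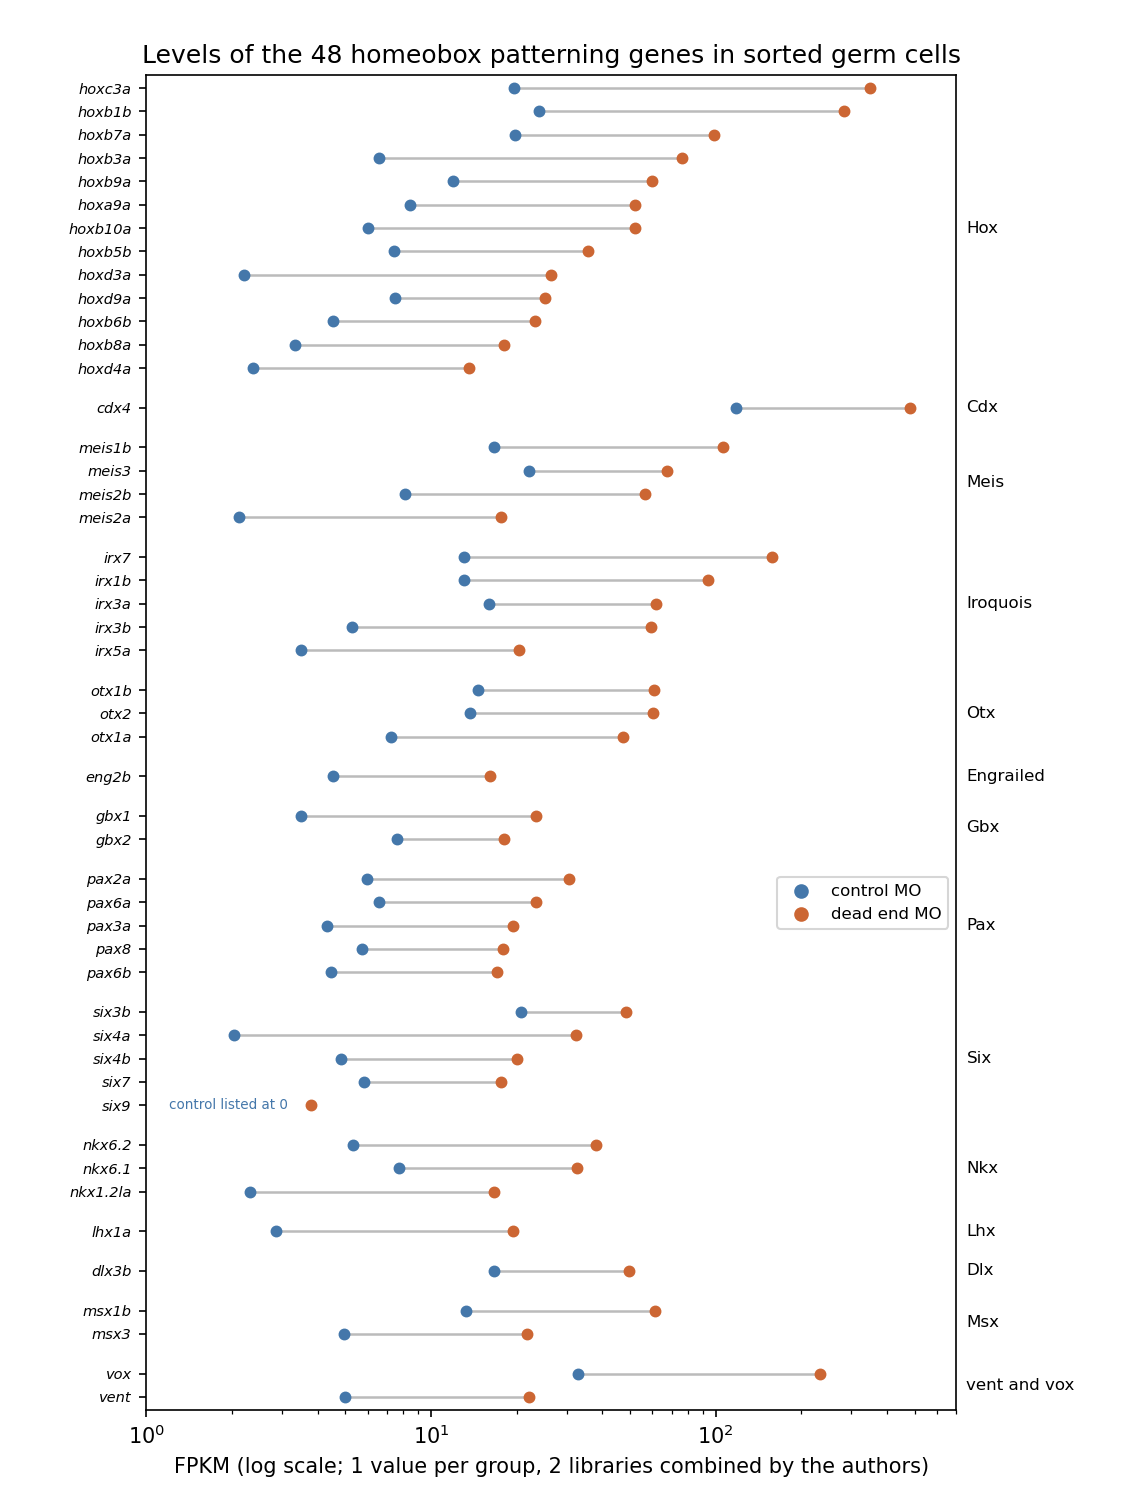
FPKM of each member (x axis, log scale) in control MO cells (blue) and dead end MO cells (orange), joined by a line and grouped by family; each point is the authors' single value for a group of 2 libraries. In all 48 genes the orange point is to the right, and cdx4, hoxc3a, hoxb1b and vox reach the highest levels with the dead end MO.

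The 13 Hox genes rose between 3.36-fold and 17.9-fold, and their median fold was 5.72. They came from 5 of the zebrafish clusters, with 5 genes in hoxba on chromosome 3, 3 in hoxbb on chromosome 12, 3 in hoxda on chromosome 9 and 1 each in hoxaa and hoxca. Their summed level went from 124 to 1113 FPKM, a ratio of 9.01, whereas the other 35 members went from 420 to 2071 FPKM, a ratio of 4.93. Hox genes thus held 22.7% of the members' summed level in controls and 34.95% with the dead end MO. Most of that shift sat in a pair of genes, hoxc3a and hoxb1b, which made up 35.2% of the Hox sum in controls and 56.9% of it with the dead end MO. The median change of the Hox genes was 2.26 in log2 (FPKM + 1) and that of the other members 2.05, a difference that was not tested.

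Among the Hox genes, those named as groups 1 and 3 showed the largest rises. For hoxc3a, hoxb3a and hoxd3a that group is uncertain, because their loci are long or shared. The group 1 gene hoxb1b (ENSDARG00000054033, chromosome 12, 27049779 to 27051474, positions as deposited and taken as GRCz10), which patterns hindbrain segments and responds to retinoic acid, rose from 23.9 to 283 FPKM. This was 11.8-fold with a 95% range of 5.88 to 23.8, and its implied standard error of 0.52 was the smallest of the Hox genes (q = 0.00107 in the authors' deposited table). Group 3 genes, which are active in the caudal hindbrain, were represented from 3 clusters. In hoxca, hoxc3a (ENSDARG00000070339, chromosome 23, 35982621 to 36178306) rose from 19.6 to 350 FPKM, 17.9-fold with a range of 5.08 to 62.8, the largest fold among the members (q = 0.00107 in the authors' deposited table). In hoxba, hoxb3a (ENSDARG00000029263, chromosome 3, 23567485 to 23730393) rose from 6.54 to 76.3 FPKM, 11.7-fold with a range of 4.16 to 32.7. The hoxda gene hoxd3a (ENSDARG00000059280, chromosome 9, 1936251 to 1958755) rose from 2.21 to 26.4 FPKM, 11.95-fold with a wide range of 2.53 to 56.4 (q = 0.0212 in the authors' deposited table). The 3 group 3 genes differed much in level: hoxc3a stood 8.88 times as high as hoxd3a in controls and 13.3 times as high with the dead end MO, and the ranges of the 3 differences in log2 change all held 0 but were wide, such as -2.30 to 3.46 for hoxc3a minus hoxd3a. The only group 4 row, hoxd4a, another retinoic acid responsive hindbrain gene, rose from 2.37 to 13.6 FPKM, 5.72-fold with a range of 1.38 to 23.7.

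The table gives hoxd3a and hoxd4a the same locus, so how their reads were divided is uncertain. The deposited loci of hoxc3a (196 kb), hoxb3a (163 kb) and hoxa9a (153 kb) are far longer than the 1.63 to 5.09 kb of the Hox genes outside these and the shared one, and such a locus can join several gene models. Of the 7 members past 10-fold, hoxc3a, hoxb3a and irx3b have loci over 100 kb and hoxd3a has the shared locus; hoxb1b, irx7 and six4a have neither.

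Trunk and tail Hox genes rose less than those of groups 1 and 3. The 4 genes of groups 5 to 8 lay close together, between 4.80-fold and 5.44-fold. Among them hoxb7a (chromosome 3, 23561298 to 23565660) was the most abundant, at 19.7 and 98.3 FPKM, and hoxb8a, next to it in the cluster, was the least, at 3.32 and 18.1 FPKM. The hoxbb genes hoxb5b, at 7.39 and 35.5 FPKM, and hoxb6b, at 4.54 and 23.1 FPKM, lie within 0.890 kb of each other on chromosome 12 and rose 4.80-fold and 5.09-fold. So the folds of these 4 genes, on chromosomes 3 and 12, hardly differed while their levels differed by several times. The ranges were wide, such as 1.40 to 18.5 for hoxb6b, so near-equality of the folds is not shown. The group 9 genes, which act in the posterior trunk, rose 6.14-fold for hoxa9a (from 8.47 to 52.0 FPKM), 4.996-fold for hoxb9a (from 12 to 59.9 FPKM) and 3.36-fold for hoxd9a (from 7.46 to 25.1 FPKM), the smallest Hox rise. Among the groups past 3 the largest rise was that of the tail gene hoxb10a (chromosome 3, 23538718 to 23541315), from 6.01 to 51.9 FPKM, or 8.64-fold with a range of 3.0 to 24.9.

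Set side by side, the 4 genes of groups 1 and 3 rose by 11.7-fold to 17.9-fold and the 9 genes of groups 4 to 10 by 3.36-fold to 8.64-fold, without overlap. This split was drawn after the values were seen, and the 95% range of every gene in the first set overlapped that of every gene in the second, so it is a description with no test. In the first set only hoxb1b has neither a locus over 100 kb nor a shared one. In the second set hoxa9a has a long locus and hoxd4a the shared one. For these genes the paralog group that the reads came from is uncertain. Along hoxba on chromosome 3, from hoxb10a to hoxb3a, the folds were 8.64, 4.996, 5.44, 4.99 and 11.7. They were higher for the outermost rows than for the rows between, with overlapping ranges. Those rows need not be the ends of the cluster, as the table is filtered by q, and the hoxb3a locus is 163 kb long. Along hoxbb the folds were 5.09, 4.80 and 11.8 from hoxb6b to hoxb1b.

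**Figure D3:**
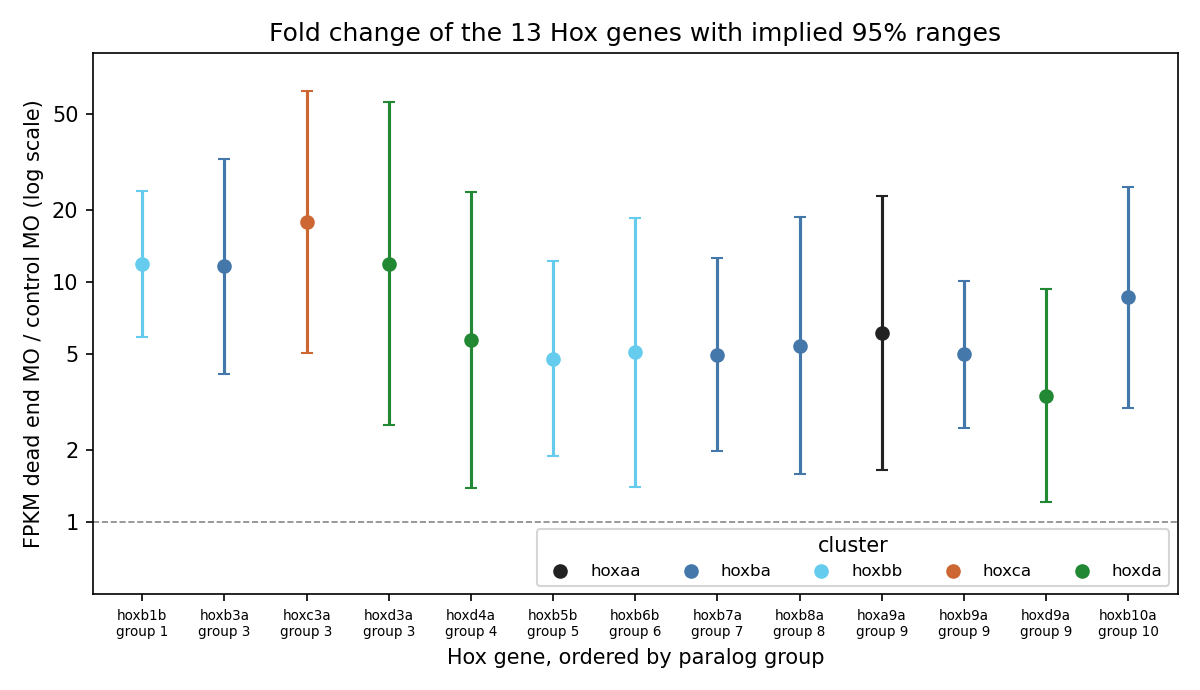
Fold change (FPKM with dead end MO over FPKM with control MO, y axis, log scale) of the 13 Hox genes, ordered by paralog group on the x axis and coloured by cluster; bars are 95% ranges from the standard error implied by the authors' statistic and the dashed line marks no change. Groups 1 and 3 lie at 11.7-fold or above and groups 4 to 10 at 8.64-fold or below, with bars that overlap. The loci of hoxc3a, hoxb3a and hoxa9a are over 100 kb long, and hoxd3a and hoxd4a share a locus.

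Regulators and partners of Hox proteins rose as well. The caudal-type gene cdx4 (ENSDARG00000036292, chromosome 14, 32621403 to 32624855), which activates posterior Hox genes and is itself a target of Wnt signals in the tailbud, was the most abundant member in both groups, at 117 FPKM in controls and 481 FPKM with the dead end MO. Its 4.09-fold rise (95% range 2.15 to 7.80) was smaller than the median member's. It supplied 21.6% of the members' summed level in controls and 15.1% with the dead end MO. The Meis genes encode TALE homeodomain cofactors that bind DNA with Pbx and Hox proteins, and 4 of the 5 annotated Meis symbols had a row. Of these meis1b rose from 16.7 to 106 FPKM, 6.35-fold with a range of 3.10 to 13.0. The copies meis2a (from 2.11 to 17.7 FPKM, 8.37-fold) and meis2b (from 8.13 to 56.5 FPKM, 6.95-fold) rose by like folds from different levels. The Meis gene most abundant in controls, meis3, which acts with Hox and Pbx proteins in hindbrain patterning, rose least, from 22.2 to 67.6 FPKM, 3.05-fold with a range of 1.54 to 6.02.

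Iroquois genes, a second TALE family that subdivides the neural plate, had 5 rows and the highest median fold of any family with at least 4 rows, 7.21. At the top irx7 (ENSDARG00000002601, chromosome 23, 37884207 to 37885532), a gene of the midbrain and hindbrain in fish, rose from 13.1 to 158 FPKM, 12.1-fold with a range of 5.11 to 28.6. It acts together with irx1b in that region, which rose from 13.0 to 93.8 FPKM, or 7.21-fold. These genes thus started from nearly the same control level. The copies irx3a and irx3b converged: irx3a stood 3.01 times as high as irx3b in controls and 1.04 times as high with the dead end MO. Their folds were 3.87 (from 15.9 to 61.7 FPKM) and 11.2 (from 5.29 to 59.1 FPKM), and the irx3a minus irx3b difference in log2 change was -1.53 with a 95% range of -3.57 to 0.51, which holds 0. The locus deposited for irx3b, 205 kb, is the longest among the members. On chromosome 7 irx5a, 331 kb from irx3a, rose from 3.49 to 20.4 FPKM, 5.85-fold.

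Genes of the anterior neural plate rose too, by smaller folds than the Hox genes of groups 1 and 3. The Otx genes specify forebrain and midbrain, and all 3 rows had the smallest q of the table. They rose 4.38-fold for otx2 (from 13.7 to 60.2 FPKM), 4.15-fold for otx1b (from 14.6 to 60.6 FPKM) and 6.52-fold for otx1a (from 7.22 to 47.1 FPKM). The eye and forebrain gene six3b had the smallest rise of all members, from 20.6 to 48.2 FPKM with a fold of 2.34 and a range of 1.15 to 4.74 (q = 0.0191 in the authors' deposited table). At the boundary of midbrain and hindbrain, the signalling centre that Otx and Gbx proteins position between them, the 5 genes eng2b, gbx1, gbx2, pax2a and pax8 rose by 2.37-fold to 6.72-fold. Of these, gbx2 (from 7.62 to 18.1 FPKM, 2.37-fold) and eng2b (from 4.52 to 16.2 FPKM, 3.57-fold) had the largest q values among the members in the authors' deposited table, 0.0484 and 0.0478. Early hindbrain gene gbx1 rose from 3.48 to 23.4 FPKM, 6.72-fold with a range of 1.89 to 23.9. Summed over these anterior genes, Otx and six3b went from 56.2 to 216 FPKM (a ratio of 3.85) and the boundary genes from 27.3 to 106 FPKM (3.88), while Hox groups 1 to 4 went from 54.6 to 749 FPKM (13.7), groups 5 to 8 from 34.9 to 175 FPKM (5.01) and groups 9 and 10 from 33.9 to 189 FPKM (5.57). The rows thus came from several axial levels between forebrain and tail, with no row of Hox groups 2 or 11 to 13, and a test between levels was not made because each rests on a few genes of the same libraries. The sum for Hox groups 1 to 4 includes hoxc3a, hoxb3a, hoxd3a and hoxd4a, whose long or shared loci leave their paralog group uncertain.

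Pax genes, which carry a paired domain, formed an even family with 5 rows between 3.14-fold and 5.10-fold. The boundary, ear and kidney gene pax2a led, from 5.97 to 30.4 FPKM. Next came pax3a of the dorsal neural tube and neural crest, from 4.30 to 19.4 FPKM or 4.51-fold, and pax8 of ear and kidney was last, from 5.71 to 17.9 FPKM. The eye and neural tube genes pax6a (from 6.57 to 23.4 FPKM, 3.56-fold) and pax6b (from 4.47 to 17.0 FPKM, 3.80-fold) rose almost alike, with a pax6a minus pax6b difference in log2 change of -0.09 and a range of -2.07 to 1.88. That range is wide, so near-equality is not shown by it.

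The sine oculis family was the most uneven. Here six4a (ENSDARG00000004695, chromosome 13, 31506277 to 31516873), of placodes and muscle precursors, rose from 2.04 to 32.2 FPKM, 15.8-fold with a range of 3.68 to 68.0, second only to hoxc3a among the members (q = 0.00588 in the authors' deposited table). Its copy six4b rose from 4.83 to 20.1 FPKM, or 4.16-fold, so the order of the copies was reversed between the groups, although the six4a minus six4b difference of 1.93 in log2 change had a range of -0.69 to 4.54. The eye field gene six7 rose from 5.83 to 17.6 FPKM, 3.02-fold.

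Genes that pattern the dorsoventral axis and the border of the neural plate followed. The ventral repressors vox and vent, which hold down dorsal organizer genes downstream of BMP signals, lie 7.01 kb apart on chromosome 13. Of these vox (50307002 to 50309275) was the second most abundant member in controls and rose from 32.9 to 233 FPKM, 7.08-fold with a range of 3.33 to 15.1, and vent rose from 5.004 to 22.2 FPKM, 4.43-fold. Thus neighbouring genes differed 6.57 times in control level, with a vent minus vox difference in log2 change of -0.68 and a range of -2.31 to 0.96. The BMP responsive genes msx1b (from 13.2 to 61.3 FPKM, 4.64-fold) and msx3 (from 4.96 to 21.7 FPKM, 4.37-fold) mark the edge of the neural plate. Also at that edge dlx3b, a gene of the ear and nose placodes, rose from 16.6 to 49.5 FPKM, 2.98-fold. In the ventral neural tube nkx6.1 rose from 7.70 to 32.6 FPKM and nkx6.2 from 5.33 to 37.99 FPKM, 4.23-fold and 7.13-fold. The remaining members were nkx1.2la, whose mouse relative marks caudal progenitors of the neural tube, at 2.31 and 16.7 FPKM (7.22-fold), and lhx1a, a LIM homeobox gene of the kidney field and axial mesoderm, at 2.85 and 19.5 FPKM (6.83-fold).

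Gene copies and neighbours were compared in 16 pairs, among them 5 pairs of a and b copies by symbol, 6 pairs within a Hox paralog group and 3 pairs of neighbours. The 5 include otx1a with otx1b, although the reference table of gene names calls otx1a otx2a. For 16 of 16 the 95% range of the difference in log2 change held 0. At an implied standard error of 0.83 to 1.55 for such a difference, differences of several-fold between copies were not detectable.

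Genes of pathways and regions related to Hox expression were followed in fixed lists. Of 27 listed genes of retinoic acid synthesis, breakdown and reception 12 had a row, and 11 rose, with a median fold of 5.84. They included the synthesis enzyme gene aldh1a2 (from 7.12 to 79.0 FPKM, 11.1-fold), the retinol dehydrogenase gene rdh10a (from 8.70 to 91.5 FPKM, 10.5-fold) and the degrading enzyme gene cyp26a1 (from 21.6 to 220 FPKM, 10.2-fold), so both arms of the metabolism were higher. The exception, the receptor gene rxrab, stood at 0.801 FPKM in controls and was listed at 0 with the dead end MO, under the 1 FPKM minimum. The hindbrain list of 19 symbols holds several names of the same gene, such as egr2b and krox20. Its 8 rows were all higher, by 2.67-fold to 8.43-fold. They were led by znf503 (from 15.3 to 129 FPKM), efnb2a (from 13.5 to 87.0 FPKM) and rfx4 (from 2.59 to 20.3 FPKM).

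Among the posterior Wnt, FGF and BMP genes, 20 of 39 listed symbols, some naming the same gene, had a row and 19 rose. The median fold over the 20 was 4.90. The largest changes were those of the mesoderm regulators msgn1 (from 32.8 to 751 FPKM) and tbx6 (from 28.6 to 597 FPKM), which also stand among the paraxial mesoderm markers. Against them gdf3, a maternally supplied TGF-beta ligand gene, fell from 195 to 19.0 FPKM, 10.2-fold. Polycomb and Trithorax genes keep Hox genes silent or active through histone marks. A row named KDM6B (1 of many), at 78.8 FPKM in controls and 216 FPKM with the dead end MO, was not matched to their list. Of its 38 symbols, which include ctcf, a gene of neither class, 7 had a row. Here 6 rose by 3.22-fold or less, led by rbbp5 (from 13.2 to 42.7 FPKM), phc2a (from 47.4 to 140 FPKM) and rbbp4 (from 47.8 to 138 FPKM), and jarid2a, which helps recruit Polycomb repressive complex, fell from 13.8 to 5.53 FPKM (2.49-fold). On the scale of log2 (FPKM + 1) their median change was 1.26, against 2.13 for the retinoic acid list and 2.51 for the hindbrain list.

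**Figure D4:**
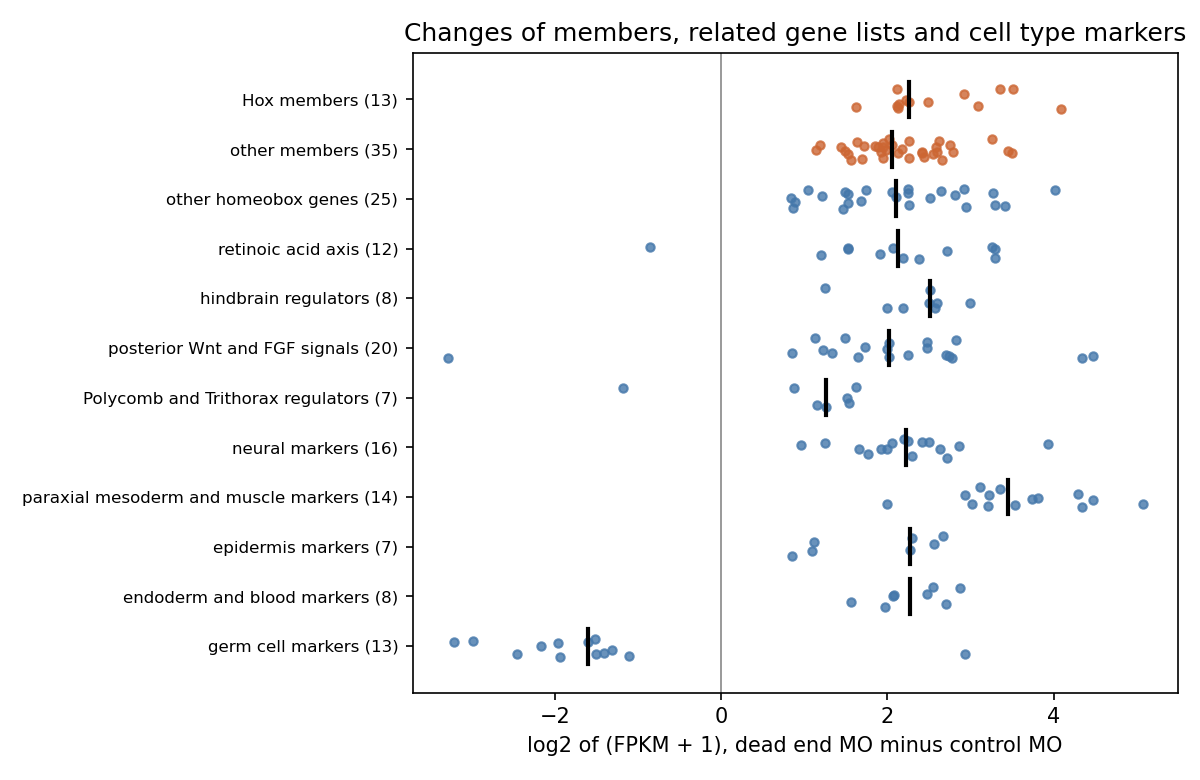
Change in log2 (FPKM + 1), dead end MO minus control MO (x axis), of the members and of related gene lists and cell type markers; each point is a gene with a row in the authors' table, black bars are medians and numbers in brackets count the rows. Hox genes (median 2.26) and other members (2.05) lie to the right of 0, beside neural (2.22), epidermis (2.27) and endoderm and blood markers (2.28). Paraxial mesoderm and muscle markers lie above them (3.45), and germ cell markers lie mostly to the left (-1.60).

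The authors' own enrichment test of the higher genes, by PANTHER with a Bonferroni correction, also listed patterning processes. Of 376 terms deposited for 1204 uploaded higher genes, 18 concern pattern, segments, somites, hindbrain or axis. In the authors' deposited table anterior/posterior pattern specification held 60 genes at 7.28-fold enrichment (corrected p = 3.34e-28) and hindbrain development 42 genes at 8.70-fold (corrected p = 5.93e-22). Among the 23 terms deposited for the lower genes 0 were of this kind. The members are part of these gene lists, so the terms are not independent of the values above.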

How the data were processed

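Poly(A) RNA of sorted germ cells was sequenced from 4 libraries, 2 per group, grouped by the labelled agent. Directional libraries were made, per the labels' protocols. Per the submitters' processing notes cutadapt 1.10, STAR 2.5.2b, Cufflinks 2.2.1 and Cuffdiff were used, and the builds GRCz10 and Zv9 are named without roles. Positions were taken as GRCz10, since chromosome 4 of Zv9 is too short to hold the largest one deposited for it (74754136). The authors deposited 1 FPKM value per gene and group, the log2 ratio, a test statistic (a score), and p-value and q-value columns, and only rows with q under 0.05 (largest 0.0498). Their enrichment tables (PANTHER release 20160715, 3142 terms) hold the deposited count of genes, the fold enrichment as a ratio and a corrected p-value, per the file headers. The strand setting and the handling of reads shared by paralogs are not given in the sources used here.

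Members were matched by symbol with pandas 2.3.3 in Python 3.11.15. Calls used the authors' q under 0.05 and at least 1 FPKM in the higher group. With 1 value per group no own test was run. Folds are FPKM ratios, medians of lists use log2 (FPKM + 1), and values listed at 0 (232 rows) get no fold. Implied standard errors are the log2 ratio over the statistic, and ranges are at 95%. Members and lists were chosen with earlier results of these data known. Every member is named. From other lists the 3 largest changes and any gene against the majority are named, and marker genes beyond these were named after their values were seen. Counting and medians were tested on simulated data with known answers. Alternatives were other FPKM minimums, pseudocounts, thresholds and subsets of members.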

Additional observations from a re-analysis of the deposited data

How the results depend on the processing

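The count of higher members was 35 to 48 under 6 alternatives, against 48: it was 37 at q under 0.01, 47 with a minimum of 5 FPKM, 35 without the Hox genes, 46 without the Pax genes with a partial homeodomain (pax2a and pax8) and 41 without members in shared loci or loci over 100 kb, an alternative chosen after seeing the data. The count of lower members was 0 under 5 alternatives, which is fixed in advance because every member row is higher. The median change in log2 (FPKM + 1) stayed between 2.05 and 2.33 for all members and between 2.19 and 2.70 for the Hox genes under 8 alternatives each, of which 4 leave the set of Hox genes and their values as they are. Leaving out each library was not run, because the table gives 1 value per group. No paired analysis was possible because the columns carry no replicate. With the depth unknown, no limit can be set for six9, listed at 0 in controls.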

Other observations

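Homeobox genes with symbols outside the families above were also higher. Of 101 listed genes 25 had a row, and 25 were higher with the dead end MO. Folds among those with both values above 0 lay between 1.80 and 26.01, and their median was 5.18. Their median change in log2 (FPKM + 1) was 2.11, against 2.16 for the 48 members and 1.49 for all called higher rows. On the scale of log2 (FPKM + 1) the largest changes were those of pou5f3, a pluripotency factor of the early embryo (from 14.3 to 247 FPKM), phox2a, a factor of noradrenergic and cranial motor neurons (26.01-fold, from 0.633 to 16.5 FPKM), and noto, the notochord factor (from 4.76 to 55.5 FPKM, 11.7-fold). By fold alone prrx1a (16.8-fold) and gsc (12.7-fold) stood above noto. The motor neuron gene mnx2a was listed at 0 in controls and at 2.198 FPKM with the dead end MO.

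Smaller rises came from broadly expressed factors. The genes homeza (from 77.3 to 139 FPKM, 1.80-fold) and adnpa (from 74.9 to 140 FPKM, 1.86-fold) were the most abundant of this list in controls and rose the least. These genes, prrx1a, gsc and mnx2a were named after their values were seen.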
